A study of Mus musculus with 21 samples.

Results

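Cells of monocyte origin that had taken the place of microglia in the mouse brain (monocyte-derived microglia, MLC) were compared with microglia that had themselves been transplanted (MG), both after saline. All libraries of these 2 groups were used, 3 for MLC and 3 for MG, out of 21 in the series, and every gene that passed a filter on low counts was tested (18867 of 57180). Per the series title, microglia were replaced in newborn mice that were studied as adults. Both kinds of cells were of the genotype Osb-GFP, were sorted from brain by flow cytometry and were labelled biological replicates, and all 6 libraries were labelled batch 2. The genotype of the recipient animals, their age in days, the sorting gate and whether animals were pooled are not given in the sources used here, so p values measure the spread between libraries, whatever its origin. The description of each MLC saline sample names a column of the count table with the MG prefix, while its title names transplanted monocytes and its library name and the table itself give MLC, and samples were assigned by title and library name. As further values, microglia of mice without a transplant after saline (NoTx, genotype CX3CR1-CreER+/-; CSF1R fl/fl, 2 libraries, batch 2) are given beside the 2 groups without a test, since their genotype differed. The same kinds of transplanted cells taken 5 days after kainic acid, which excites glutamate receptors, had caused seizures gave 6 MLC and 4 MG libraries, all of batch 1.

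Microglia are the macrophages of the brain. They arise from yolk sac progenitors, and the transcription factor Sall1 and TGF-beta signalling maintain their resting profile, which includes the purinergic receptor P2ry12. When their niche is emptied, monocytes of bone marrow origin can enter the brain, take up a ramified form and express part of that profile. Macrophages of bone marrow origin are known to keep markers such as Ms4a7, Apoe and MHC class II.

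The 6 libraries held 36.8 M to 50.3 M estimated counts, in which 17893 to 21988 genes were detected. Levels are given as CPM, counts scaled to library size by the TMM method of edgeR, in the order of replicates 1, 2 and 3. They are not corrected for gene length and are compared between libraries, not between genes. Genes that mark any brain macrophage were found in both groups. Csf1r, the receptor for the macrophage survival factors CSF1 and IL-34, had 5929, 5729 and 11794 CPM in MG and 2209.6, 1389 and 7679 in MLC. The pan-leukocyte phosphatase Ptprc (CD45) had 936, 705 and 664 CPM in MG and 1032, 1515 and 967 in MLC, and the signalling adaptor Tyrobp had 681, 1215 and 1031 CPM in MG and 794, 678 and 865 in MLC. The 2 groups overlapped in Csf1r and Tyrobp, and MLC lay above MG in Ptprc. Ptprc did not pass with edgeR (adjusted p = 0.65) but did with limma-voom (adjusted p = 0.029). Xist, transcribed from the inactive X chromosome of females, had 305, 408 and 360.3 CPM in MG and 0.652, 2.05 and 0.452 in MLC. The Y-linked helicase Ddx3y had 54.9, 25.9 and 0.472 CPM in MG and 239.5, 353 and 209 in MLC, so MG replicates 1 and 2 held transcripts of both sexes. After seizure Xist ran from 187 to 421 CPM in MG and from 1.08 to 7.48 in MLC. By these transcripts sex and kind of cells therefore cannot be told apart between MLC and MG in either set. The names of the seizure libraries hold the letters F and M in both kinds, but these letters did not follow the transcripts in MLC, and MG libraries of either letter held Xist. MG seizure replicates 2 and 4, whose names hold M, had 225 and 187 CPM of Xist and 48.5 and 108 of Ddx3y. Replicates 1 and 3 of MG, whose names hold F, had 289 and 421 CPM of Xist and 38.7 and 4.83 of Ddx3y. MLC seizure replicate 1, whose name holds F, had 2.64 CPM of Xist and 379 of Ddx3y. The NoTx saline libraries had 0.520 and 0.928 CPM of Xist and 241 and 294 of Ddx3y, so they resembled MLC in these 2 genes. Of the 299 genes called below, 11 lie on the X chromosome and 279 are autosomal. The matching shares of all genes tested are not given, and the part of sex in these calls was not tested.

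The genes called between MLC and MG differed by large amounts. Of 18867 genes tested, 147 were higher and 152 lower in MLC (edgeR quasi-likelihood test, adjusted p under 0.05), which is 0.779% and 0.806% of the genes tested. These 2 shares are the background for every count of called list members below. The lists were chosen with earlier results of these data known, so such counts may partly reflect that choice. The median log2 fold change was 5.37 among the higher and -5.47 among the lower genes, against 0 over all genes tested. A log2 fold change of at least 5 was seen in 82 of the higher and 80 of the lower genes, and one under 2 in 19 and 27. In each of the 299 called genes the 3 MLC libraries lay wholly above or wholly below the 3 MG libraries, which was so for 22.8% of all genes tested. The spread was estimated over all 21 libraries. Estimated from the 6 libraries alone it gave 485 higher and 387 lower genes, among them 294 of the 299. Leaving out 1 of the 6 libraries gave 181 to 227 called genes, and 81 of the higher and 71 of the lower genes were called in all 6 such fits. In bulk libraries fewer cells of a type and less RNA per cell cannot be told apart.

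**Figure D1:**
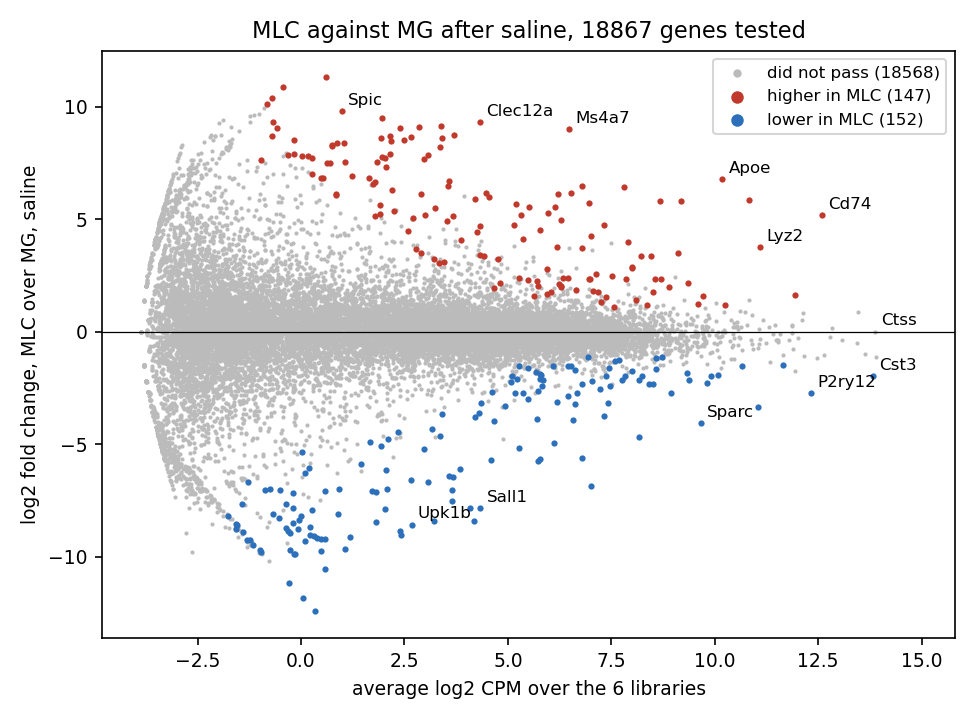
Each point is 1 of 18867 genes, with the average log2 CPM over the 3 MLC and 3 MG saline libraries on the x axis and the log2 fold change of MLC over MG on the y axis. Red and blue points are the 147 higher and 152 lower genes, most of which lie beyond a log2 change of 2, while Ctss is among the abundant genes near 0.

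Among transcription factors 2 listed for microglial identity and 1 listed for other macrophages were called. Of 18 factors listed for microglial identity, Sall1 and Sall3 were called, both lower in MLC (list median -0.08). Sall1, a zinc finger factor that holds microglia in their resting state, had 334, 263 and 429 CPM in MG and 2.54, 0.351 and 1.58 in MLC (log2 change of -7.83, SE 0.73, adjusted p = 4.7e-07). Its relative Sall3 had 104, 103 and 112 CPM in MG and 0.217, 0.216 and 0.170 in MLC (log2 change of -9.02, SE 0.95, adjusted p = 2.4e-06). The groups lay far apart in both genes. The NoTx libraries had 273 and 113 CPM of Sall1 and 102 and 110.5 of Sall3. The other factors of the list did not pass with edgeR on all 21 libraries. Limma-voom called 3 of the list lower and 1 higher. Spi1 (PU.1), the master factor of myeloid cells, had 19, 29.5 and 23.5 CPM in MG and 26.6, 30.2 and 24.8 in MLC, with a log2 fold change of 0.18 and a 95% interval from -1.0 to 1.36. The interval was -0.72 to 0.25 for Mef2c and -1.29 to 0.44 for Irf8, factors that restrain microglial activation or that macrophages need to mature. In Smad3, which carries TGF-beta signals to the nucleus, all 3 MLC libraries (36.8, 30.4 and 27.7 CPM) lay below all 3 MG libraries (86.2, 73.9 and 53.6). Smad3 did not pass with edgeR (adjusted p = 0.82) but did with limma-voom (adjusted p = 0.040).

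Of 23 tested factors listed for monocytes and other macrophages, 1 was higher in MLC. This was Spic, an ETS factor of the PU.1 family known from iron-recycling macrophages of the spleen, with 38.0, 47.6 and 31.9 CPM in MLC and 0.0932, 0.0228 and 0 in MG (log2 change of 9.80, SE 1.05, adjusted p = 2.6e-06). Runx3, a RUNX factor of leukocytes, had 14.4, 13.9 and 8.34 CPM in MLC and 0.163, 0.205 and 0 in MG and missed the threshold (adjusted p = 0.054), but passed with DESeq2, limma-voom and the spread of the 6 libraries alone (adjusted p = 3.7e-07, 2.5e-06 and 0.0068). Those 3 fits called 3, 4 and 4 factors of this list higher, and the fit of the 8 saline libraries 4. The groups did not overlap in Spic or Runx3. Outside the lists, the aryl hydrocarbon receptor Ahr, a ligand-activated factor that senses tryptophan metabolites, had 16.8, 7.47 and 14.3 CPM in MLC and 0.116, 0 and 0.0555 in MG (log2 change of 7.71, SE 1.49, adjusted p = 0.0050). Ahr was picked after its values had been seen.

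The resting profile of microglia was lower in MLC as a group, yet unevenly so. All 26 tested members of the homeostatic list had negative log2 fold changes, with a median of -2.06, and 16 were called lower, or 61.5% where 0.806% of all genes were. Some members were close to absent. The tetraspanin Upk1b had 114, 159 and 75.4 CPM in MG and 0.261, 0.432 and 0.226 in MLC (log2 change of -8.56, SE 0.58, adjusted p = 1.0e-08), and the fructose transporter Slc2a5 had 1129, 1679.6 and 1692 CPM in MG and 9.10, 6.58 and 23.5 in MLC (log2 change of -6.84, SE 0.88, adjusted p = 4.3e-05). Others kept a sizeable level. P2ry12, the ADP receptor that guides microglial processes, had 15425, 13285 and 11156 CPM in MG and 2441, 1634 and 1934 in MLC, and Siglech, an endocytic sialic acid receptor, had 1249, 1609 and 1376 CPM in MG and 333, 268 and 353 in MLC. The cysteine protease inhibitor Cst3, one of the genes with the most counts in microglia, had 20905, 40299.9 and 26951 CPM in MG and 9201, 5770.2 and 7516 in MLC (log2 change of -1.97, SE 0.34, adjusted p = 0.0013). In all 5 of these genes the lowest MG library was above the highest MLC library. With GC-content correction Cst3 was not called (edgeR adjusted p = 0.30).

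Members that did not pass with edgeR on all 21 libraries included genes often used to name microglia. Tmem119, a membrane protein of microglia, had 6491, 6465 and 10047 CPM in MG and 1848, 1180.3 and 3824 in MLC (adjusted p = 0.66). The fractalkine receptor Cx3cr1 had 8050.2, 9088 and 10836 CPM in MG and 2522, 2180.4 and 7946 in MLC (adjusted p = 0.68). Limma-voom called both lower (adjusted p = 0.011 for Tmem119 and 0.0034 for Cx3cr1). In both genes MLC replicate 3 was the nearest to MG, and no MLC library reached the lowest MG library. For Csf1r, MLC replicate 3 lay within the range of MG while replicates 1 and 2 were below it (log2 fold change -1.06, 95% interval -2.57 to 0.46). MG replicate 3 had the highest level of Csf1r, Cx3cr1 and Tmem119 among the MG libraries, and MLC replicate 3 among the MLC libraries.

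**Figure D2:**
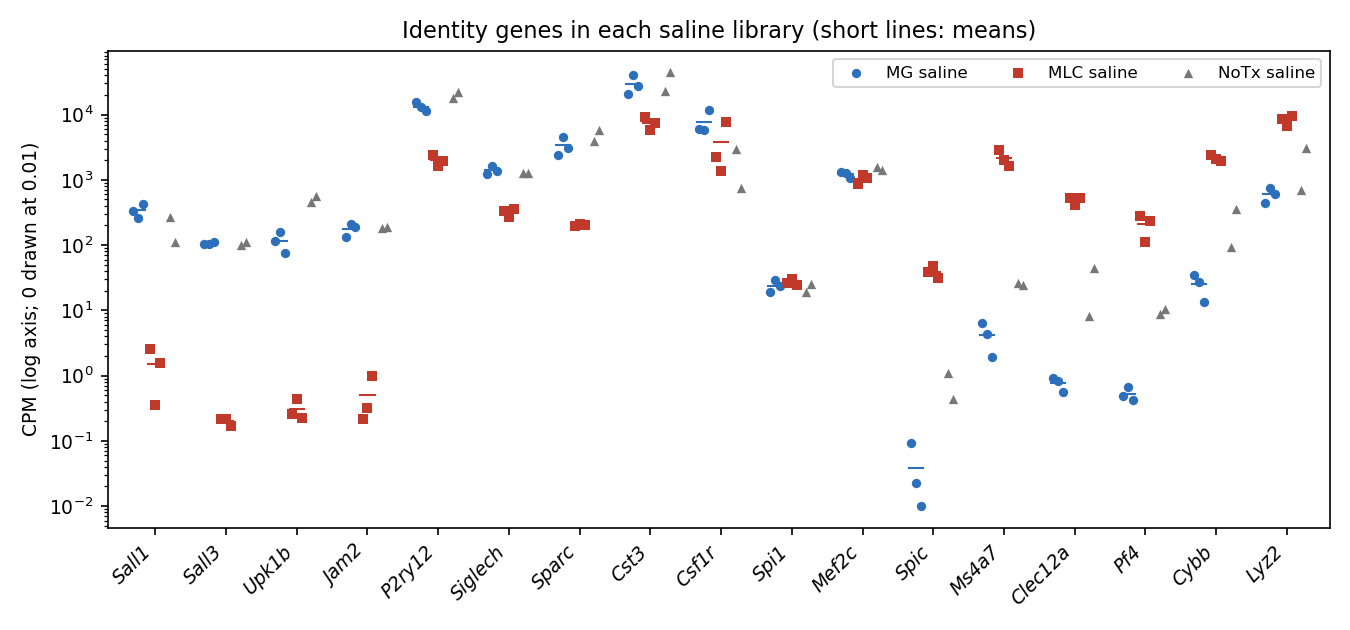
CPM on a log axis for 17 genes in each saline library, with MG as blue circles, MLC as red squares and NoTx as grey triangles (short lines are means of the 3 MG or 3 MLC libraries, and 0 is drawn at 0.01). Sall1, Sall3, Upk1b and Jam2 lie far apart, P2ry12 and Cst3 closer together, Spi1 and Mef2c overlap, and Spic to Lyz2 are higher in every MLC library than in any MG library.

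Genes known from brain macrophages of bone marrow origin were higher in MLC in most cases. Of 37 tested members 25 were called, all of them higher (67.6%, against 0.779% of all genes), with a list median of 5.18. This list shares members with the families below, so its count is not independent of theirs. It was also chosen with earlier results of these data known, so its share of calls is a description and not independent support. Clec12a, an inhibitory lectin receptor for uric acid crystals, had 528, 415 and 534 CPM in MLC and 0.932, 0.821 and 0.555 in MG (log2 change of 9.31, SE 0.75, adjusted p = 1.4e-07). Lyz2, the lysozyme gene of myeloid cells, had 8485, 6796 and 9453 CPM in MLC and 448, 751 and 609.6 in MG (log2 change of 3.77, SE 0.45, adjusted p = 1.2e-05). Klra2, a Ly49 lectin receptor, had 235, 407 and 188 CPM against 1.00, 0.616 and 0.305. The group thus held genes close to absent from MG as well as a gene such as Lyz2 that MG carried at a lower level. NoTx libraries had 691 and 3037 CPM of Lyz2 and 8.20 and 44.9 of Clec12a, above every MG library in Clec12a. Of 13 tested markers of blood monocytes, 0 were called with edgeR on all 21 libraries, DESeq2 or limma-voom, 2 had an unadjusted p under 0.05, and 1 was called higher with the spread of the 6 or of the 8 saline libraries alone. Of the 13, 6 had positive log2 fold changes (highest 3.75) and 7 negative ones (lowest -2.63), and 1 was called higher after seizure. Ly6c2 and Ccr2, given here by value, are both on the negative side. Ly6c2, an antigen of classical monocytes, had 0.0434, 0 and 0.0565 CPM in MLC and 0.163, 0.0456 and 0.0555 in MG, against 11.2 and 71.1 in NoTx, and Ccr2, the receptor by which monocytes leave the marrow, had 3.04, 1.35 and 2.69 in MLC and 17.6, 10.9 and 6.94 in MG. The summed level of the 13 monocyte markers ran from 17 to 34.8 CPM in MLC, from 34.5 to 39.0 in MG and from 255 to 1266 in NoTx.

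Border macrophages live in the meninges and around vessels. Of 21 of their genes tested, 5 were called, all higher in MLC, among them the chemokine Pf4 (283, 111 and 232 CPM in MLC, 0.489, 0.661 and 0.416 in MG), the mannose receptor Mrc1 (844, 795 and 1299 CPM in MLC and 27.9, 19.9 and 7.77 in MG) and the endocytic adaptor Dab2 (507, 373 and 884 CPM in MLC and 37.8, 33.4 and 22.5 in MG). The count was 9 with the spread of the 6 libraries alone, 10 with that of the 8 saline libraries and 11 with limma-voom. Lyve1, a hyaluronan receptor, had 1 and 3 counts in all over the 3 MLC and the 3 MG libraries, the haemoglobin scavenger receptor Cd163 had 14.2, 8.20 and 7.42 CPM in MLC and 0.303, 0.0912 and 0.194 in MG, and the folate receptor Folr2 4.41, 1.21 and 3.01 CPM in MLC and 0.652, 2.51 and 0.750 in MG. Cd163 did not pass with edgeR on all libraries (log2 change of 5.64, adjusted p = 0.18) but did with DESeq2, limma-voom and edgeR on the 6 libraries (adjusted p = 4.8e-04, 2.9e-05 and 0.0027). The phagocytic receptor Timd4 had 10 counts over the MLC and 7 over the MG libraries. Dab2 was not called without MG replicate 1, 2 or 3 or MLC replicate 3 (edgeR adjusted p = 0.054 to 0.11).

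Surface receptor families were compared member by member. In the Ms4a family of multi-pass membrane proteins, 6 of 11 tested members were called, all higher (54.5%, against 0.779% of all genes, median 4.12). Ms4a7 had 2859, 1985 and 1645 CPM in MLC and 6.38, 4.31 and 1.92 in MG (log2 change of 9.0, SE 0.86), and Ms4a14 had 124, 141 and 70.4 CPM in MLC and 0.279, 0.251 and 0.0833 in MG (log2 change of 9.05, SE 0.66). Ms4a6b had 1074, 1090.1 and 732 CPM in MLC and 262, 291 and 179 in MG (log2 change of 1.98, SE 0.36), so that members differed in whether MG expressed them. These genes lie close together and some are similar in sequence, so that reads of one may have been counted for another. Of 29 C-type lectin receptors, 6 were called, all higher, including Clec4n (Dectin-2), a receptor for fungal mannans, with 90.4, 43.6 and 65.5 CPM in MLC and 0.512, 0.205 and 0.111 in MG. Clec7a (Dectin-1), which binds beta-glucans, had 243, 129.98 and 215 CPM in MLC and 60.4, 60.9 and 39.1 in MG (log2 change of 1.87, SE 0.44, adjusted p = 0.029). Among 37 Siglec and paired receptors, Lilrb4a, an inhibitory receptor that binds apolipoprotein E, was higher (885, 1325 and 940.4 CPM against 14.5, 10.4 and 10.8), as were Cd300ld and Sirpb1b, and Siglech was lower. Against these 3 higher and 1 lower, the fit of the 6 libraries called 11 and 2, that of the 8 saline libraries 11 and 3, DESeq2 6 and 4, and limma-voom 13 and 5. Clec7a was not called without MG replicate 1, 2 or 3 or MLC replicate 1 or 3 (edgeR adjusted p = 0.072 to 0.16).

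Purinergic and adenosine receptors let microglia sense nucleotides released by neurons and other cells. Of 15 purinergic and adenosine receptors and related genes, P2ry12, P2ry13 and Adora3 were called, all lower in MLC (median -1.20), while 5 had positive log2 fold changes. With the spread of the 6 libraries alone 6 were lower and 1 higher. The adenosine receptor Adora3 had 334, 447 and 430.3 CPM in MG and 6.06, 18.3 and 14.6 in MLC (log2 change of -4.96, SE 0.86, adjusted p = 0.0014). P2ry13, another ADP receptor, had 5031, 6554 and 4958 CPM in MG and 2034, 1348 and 2569 in MLC (log2 change of -1.47, SE 0.35, adjusted p = 0.029). The UDP receptor P2ry6 and the ATP-gated channel P2rx7 overlapped between groups, with 95% intervals of -0.74 to 1.02 and -1.0 to 0.76. Of genes outside that list, Slc1a3 (GLAST), a glutamate transporter best known from astrocytes, had 485, 426 and 495 CPM in MG and 2.09, 19 and 5.09 in MLC (log2 change of -5.75, SE 0.73, adjusted p = 3.1e-05). Of other astrocyte markers, Gfap had 2.12, 2.05 and 5.08 CPM in MG and 8.28, 9.98 and 5.71 in MLC and Aqp4 0.489, 0.616 and 0.0833 CPM in MG and 0, 0 and 0.622 in MLC. Adgrg1 (GPR56), an adhesion receptor of microglia, had 745, 564 and 1462 CPM in MG and 9.34, 7.66 and 39.9 in MLC (log2 change of -5.60, SE 0.92, adjusted p = 8.4e-04). P2ry13 was not called without MG replicate 1, 2 or 3 or MLC replicate 1 or 2 (edgeR adjusted p = 0.059 to 0.22).

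Adhesion molecules were called in both directions, with 2 higher and 3 lower of 30 tested. Itgal, the alpha chain of LFA-1, had 34.1, 65.0 and 124 CPM in MLC and 2.45, 0.753 and 4.25 in MG, and Itga4, the alpha chain of VLA-4, 82.0, 189.99 and 162 CPM in MLC and 2.10, 2.12 and 3.05 in MG. Both pair into integrins by which leukocytes adhere to endothelium. On the low side stood the beta3 integrin chain Itgb3 (38.2, 30.8 and 56.5 CPM in MG, 0.0869, 0.0809 and 0.735 in MLC), the junctional protein Jam2 (133, 207 and 186 CPM in MG and 0.217, 0.324 and 0.998 in MLC) and the selectin ligand Selplg (6062, 7025 and 7202 CPM in MG and 649, 550.03 and 811 in MLC). Jam2 had the lowest adjusted p of the 5, 4.7e-07 (log2 change of -8.39, SE 0.78). Of 22 tetraspanins, Upk1b, Tspan7 and Cd9 were lower and the lysosomal Cd63 higher. Cd9 had 1620.3, 2185 and 1931 CPM in MG and 578, 372 and 523 in MLC, and Cd63 479, 499 and 546 CPM in MG and 1498, 931 and 1119 in MLC, and the groups did not overlap in either. Nrp1, a co-receptor for semaphorins and VEGF, was the single guidance molecule called among 34 (611, 588 and 827 CPM in MLC, 189, 180.2 and 223 in MG, with an adjusted p of 0.0013). Itga4 was not called without MG replicate 1, 2 or 3 or MLC replicate 2 (edgeR adjusted p = 0.051 to 0.11), and Selplg was not called without MLC replicate 1 or 2 (edgeR adjusted p = 0.065 to 0.080). Cd63 was not called without MG replicate 1, 2 or 3 or MLC replicate 1 or 3 (edgeR adjusted p = 0.054 to 0.18).

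Chemokine ligands were called in both directions. Of 26 ligands 5 were higher (Pf4, Ccl7, Ccl8, Ccl12 and Cxcl16) and Ccl9 and Ccl6 were lower. Ccl12, a ligand of the monocyte receptor CCR2, had 2447, 2849 and 820.2 CPM in MLC and 185, 262 and 99.2 in MG (log2 change of 3.48, SE 0.60, adjusted p = 0.0014), and Ccl7, another, had 195, 442 and 61.7 CPM in MLC and 3.52, 6.23 and 1.33 in MG. Ccl9, a ligand of CCR1, had 142, 243 and 179.7 CPM in MG and 5.76, 1.35 and 3.81 in MLC (log2 change of -5.69, SE 0.54, adjusted p = 4.7e-07). Among 17 receptors 2 were higher and 1 lower. Ccr1, a receptor for CCL3, had 899, 694 and 753 CPM in MLC and 98.9, 196 and 31.3 in MG (log2 change of 2.85, SE 0.56, adjusted p = 0.0050). Cxcr4, which retains cells in the marrow, was called higher at 1.74, 7.93 and 2.19 CPM in MLC, with 2 counts over the 3 MG libraries. Of 37 cytokine and growth factor receptors the common gamma chain Il2rg was called (340.5, 607 and 152 CPM in MLC, 61.6, 69.8 and 56.0 in MG). The growth factor Igf1 had 264, 144 and 197 CPM in MLC and 2.66, 4.65 and 1.19 in MG (log2 change of 6.15, SE 1.45, adjusted p = 0.028), and Gdf3, a ligand of the TGF-beta family, 67.4, 60.1 and 131 CPM in MLC and 0.116, 0.0912 and 0.139 in MG. Cxcr4 was not called without MG replicate 2 or 3 or MLC replicate 2 (edgeR adjusted p = 0.082 to 0.13), and Il2rg was not called without MG replicate 1, 2 or 3 or MLC replicate 1 or 2 (edgeR adjusted p = 0.087 to 0.28). Igf1 was not called without MG replicate 1, 2 or 3 or MLC replicate 1 (edgeR adjusted p = 0.065 to 0.16).

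Interferon-inducible genes had positive log2 fold changes throughout but few calls. All 46 tested members of the type I interferon list had positive log2 fold changes (median 1.38), of which 2 were called, or 4.35% where 0.779% of all genes were. Bst2 (tetherin), which holds budding viruses at the cell surface, had 512, 572 and 491 CPM in MLC and 80.2, 142 and 90.3 in MG (log2 change of 2.33, SE 0.33, adjusted p = 1.3e-04). Ifi47, an interferon-inducible GTPase, had 188, 340.1 and 102 CPM in MLC and 8.43, 11.9 and 3.03 in MG. With the spread estimated from the 6 libraries alone, 16 interferon genes were called higher, and 4 were without MLC replicate 3. The PYHIN family of DNA sensors, also interferon-inducible, had 4 called of 13, all higher (median 4.04). Mndal had 166, 265 and 103 CPM in MLC and 0.629, 0.228 and 0.0833 in MG (log2 change of 9.12, SE 0.77), Ifi203 had 212, 438 and 137 CPM in MLC and 0.815, 0.410 and 0.167 in MG, and Ifi207 had 266, 402 and 163 CPM in MLC and 17.4, 11.2 and 7.44 in MG. The inflammasome sensor Aim2 of the same family overlapped between groups (89.0, 112 and 65.5 CPM in MLC and 67.5, 67.9 and 57.9 in MG). Type I interferon acts on such genes through the interferon-stimulated response element, searched here as GAAA, any 2 bases and GAAA on both strands. RefSeq promoters (GRCm38.p6, 250 bases before to 50 after the start) were matched by symbol for 49 of the 59 tested genes of both lists. The element was found in 63.3% of them, in 12.1% of the 107 promoters matched for higher genes, in 2.91% of the 103 for lower genes and in 4.04% of the 11399 for all genes tested. The 4 called members of both lists that hold it are shown, with the element in capitals. They were picked from called members, all of which were higher, so their shared direction is no result about the element. They are also among the 13 promoters that make up the 12.1%, while 3 promoters make up the 2.91%.
Ifi203 (chr1:173942443-173942742, minus strand): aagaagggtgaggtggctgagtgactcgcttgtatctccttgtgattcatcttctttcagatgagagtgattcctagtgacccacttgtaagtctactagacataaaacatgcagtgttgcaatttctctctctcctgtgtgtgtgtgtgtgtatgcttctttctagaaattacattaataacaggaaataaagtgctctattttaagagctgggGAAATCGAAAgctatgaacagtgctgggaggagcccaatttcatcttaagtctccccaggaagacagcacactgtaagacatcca
Mndal (chr1:173880138-173880437, minus strand): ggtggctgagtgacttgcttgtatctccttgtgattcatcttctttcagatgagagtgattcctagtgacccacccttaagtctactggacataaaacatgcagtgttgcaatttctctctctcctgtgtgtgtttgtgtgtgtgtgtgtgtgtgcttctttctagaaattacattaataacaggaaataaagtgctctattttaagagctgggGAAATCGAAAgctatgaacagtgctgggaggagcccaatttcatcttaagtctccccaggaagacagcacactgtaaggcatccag
Ifi207 (chr1:173741760-173742059, minus strand): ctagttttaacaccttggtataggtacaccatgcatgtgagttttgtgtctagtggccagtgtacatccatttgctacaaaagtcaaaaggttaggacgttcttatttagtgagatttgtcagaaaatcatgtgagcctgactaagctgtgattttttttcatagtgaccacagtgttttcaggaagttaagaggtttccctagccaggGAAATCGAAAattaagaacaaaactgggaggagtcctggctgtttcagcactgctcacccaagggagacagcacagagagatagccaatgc
Bst2 (chr8:71537423-71537722, minus strand): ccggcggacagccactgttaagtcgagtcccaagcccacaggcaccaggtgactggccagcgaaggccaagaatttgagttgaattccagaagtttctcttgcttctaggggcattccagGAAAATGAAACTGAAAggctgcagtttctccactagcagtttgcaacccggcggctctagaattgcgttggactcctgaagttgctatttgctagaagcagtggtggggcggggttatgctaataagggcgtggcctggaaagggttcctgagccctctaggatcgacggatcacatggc
Ifi203 and Mndal shared 282 of 289 aligned promoter bases (97.6%), and Ifi203 and Ifi207 64.3%. The genes of this family are related copies, so counts may be shared between them. The PU.1 site GAGGAAGT, on both strands, was in 8.41% of higher (9 of 107), 6.80% of lower (7 of 103) and 3.83% of all matched promoters. The MEF2 site (CTA, any 4 bases and TAG) was in 1.87% (2), 8.74% (9) and 3.75%. These shares rest on few promoters, and no difference between them was tested for any of the 3 motifs.

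Some genes that serve antigen presentation through MHC class II had more RNA in MLC than in MG. Their levels varied widely among the MLC libraries. The counts measure RNA and not presentation itself. Of 15 tested genes 6 were called, all higher. The calls were lost in fits without an MG library and mostly lost without MLC replicate 2. Each fit without 1 library also called fewer genes in all (181 to 227 against 299). The number called was 0 without MG replicate 1, 2 or 3 and 1 without MLC replicate 2, although the fold changes kept their direction. Without the low-count filter the number called was 1, and H2-Ab1, Cd74, H2-Aa and Ciita did not pass (edgeR adjusted p = 0.077, 0.10, 0.21 and 0.13). The chain H2-Ab1 had 300.1, 318 and 219 CPM in MG and 14027, 29714 and 4253 in MLC (log2 change of 5.84, SE 1.19, adjusted p = 0.0076), and H2-Aa, with which it pairs, 105, 132 and 41.2 CPM in MG and 3418, 10336 and 1859 in MLC. The invariant chain Cd74, which fills the groove of class II until peptide is loaded, had 1713, 1462 and 548 CPM in MG and 35718, 85970.2 and 12867 in MLC (log2 change of 5.18, SE 1.10, adjusted p = 0.012). Ciita, the master regulator of class II transcription, had 2.14, 2.05 and 1.19 CPM in MG and 44.7, 407 and 25.1 in MLC (log2 change of 6.46, SE 1.48, adjusted p = 0.022). In all 4 genes MLC replicate 2 was highest and replicate 3 lowest, and even replicate 3 exceeded every MG library. H2-Ab1 was not called without MG replicate 1, 2 or 3 (edgeR adjusted p = 0.058 to 0.068), and H2-Aa was not called without MG replicate 1, 2 or 3 or MLC replicate 2 (edgeR adjusted p = 0.13 to 0.19). Cd74 was not called without MG replicate 1, 2 or 3 or MLC replicate 2 (edgeR adjusted p = 0.058 to 0.094), and Ciita was not called without MG replicate 1, 2 or 3 or MLC replicate 2 (edgeR adjusted p = 0.11 to 0.24). H2-DMa was not called without MG replicate 1, 2 or 3 or MLC replicate 1 or 2 (edgeR adjusted p = 0.090 to 0.18). The peptide editor H2-DMa was also higher (381, 571 and 556 CPM in MG and 1523, 1910.3 and 1039 in MLC), whereas H2-Oa, which restrains it, overlapped (53.5, 72.5 and 53.4 CPM in MG and 17.5, 100.5 and 14.1 in MLC), as did the protease Ctss that trims the invariant chain (14339, 16369 and 14488 CPM in MG and 17099, 15163 and 13106 in MLC). Markers that define dendritic cells and B cells, which also carry class II, varied in which MLC library was highest. MLC replicate 2 was highest for 6 of 11 dendritic markers (54.5%, against 32.1% of all genes tested) and 2 of 7 B cell markers, and their part in the class II difference was not tested. The dendritic factor Zbtb46 had 5.04, 3.21 and 3.15 CPM in MLC and 6.82, 3.60 and 5.66 in MG, the receptor Flt3 3.08, 0 and 0.113 CPM in MLC and 0.675, 0.775 and 2.19 in MG, and the B cell receptor component Cd79b 72.0, 62.5 and 30.0 CPM in MLC and 48.0, 62.3 and 51.8 in MG. Zbtb46, Flt3 and Cd79b were each highest in MLC replicate 1 and do not stand for their lists. Of the 11 dendritic markers 5 had positive log2 fold changes (highest 3.49) and 6 negative ones. Of the 7 B cell markers 5 had positive log2 fold changes (list median 1.81, highest 7.06) and 2 negative ones, with 0 called. The 11 tested dendritic markers, Siglech and Bst2 among them, summed to 1181 to 1261 CPM in MLC and 1669.8 to 2039 in MG. The 7 B cell markers, most of it the immunoglobulin gene Ighm, summed to 618 to 904 CPM in MLC and 971 to 1257 in MG. MHC class I genes had 20 of 23 positive log2 fold changes (median 0.61), 4 at an unadjusted p under 0.05, and 0 calls with edgeR on all 21 libraries, 2 and 3 with edgeR on the 6 and on the 8 saline libraries, 1 with DESeq2 and 7 with limma-voom.

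The library that was highest in class II was also highest in most interferon genes. MLC replicate 2 had the highest level among the 3 MLC libraries for 13 of 13 PYHIN genes, 38 of 46 type I interferon genes, 11 of 15 class II genes and 14 of 23 class I genes, and for 32.1% of all genes tested. The order replicate 2 over 1 over 3 held for 12, 26, 10 and 11 of these, and for 14.7% of all genes. MLC replicate 3, in contrast, was highest for 23 of 37 lysosomal and 19 of 26 glycolytic genes, against 34.7% of all genes. These counts describe 3 libraries and the genes in them are not independent.

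**Figure D3:**
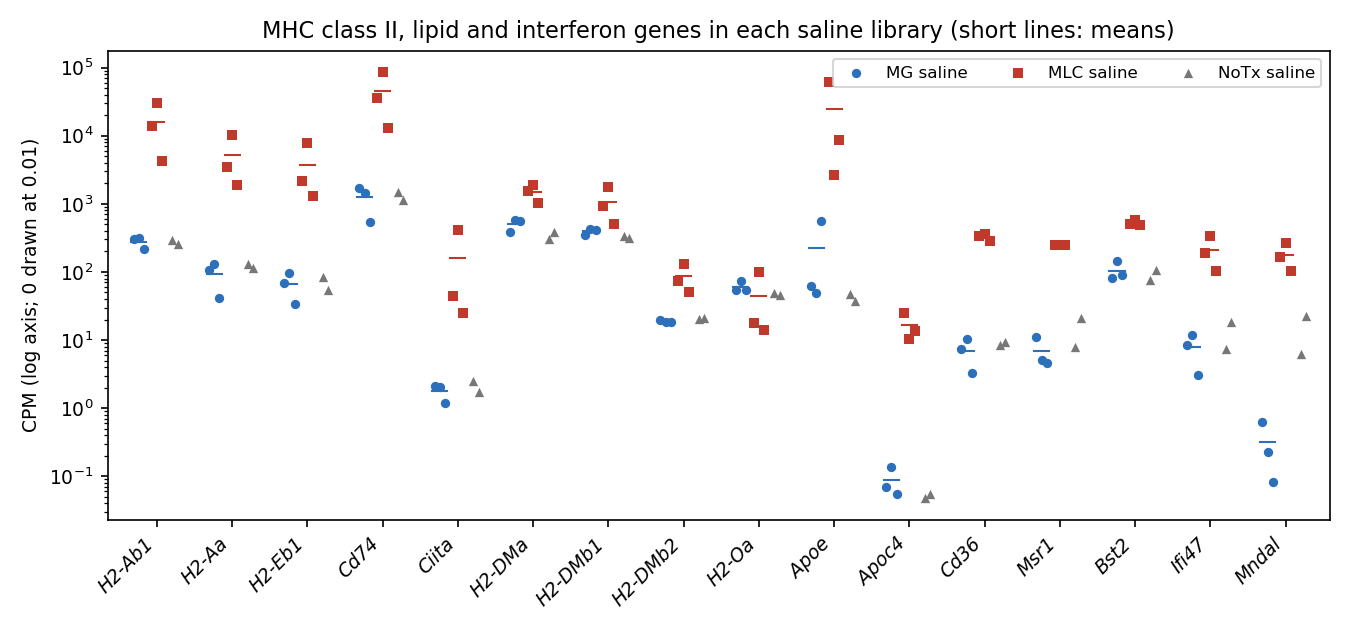
CPM on a log axis of 16 genes of MHC class II, lipid handling and interferon response in each saline library, with MG as blue circles, MLC as red squares and NoTx as grey triangles, replicates from left to right (short lines are means, and 0 is drawn at 0.01). The middle red square, MLC replicate 2, is the highest of the 3 for H2-Ab1, H2-Aa, H2-Eb1, Cd74, Ciita, Ifi47 and Mndal, and the lowest for Apoe.

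Lipid genes were called in both directions, more of them higher. Of 40 tested members 5 were higher (12.5%, against 0.779% of all genes) and 1 lower (2.5%, against 0.806%), with a median of 0.36. The groups did not overlap in 19 of the 40, and in 22.8% of all genes tested. The fit of the 6 libraries called 10 higher and 2 lower, DESeq2 8 and 2, and limma-voom 10 and 3. Without MG replicate 1 the higher ones numbered 3, and without MG replicate 3 they numbered 2. Apoe, the main lipid carrier of the brain, had 62324, 2671 and 8569.97 CPM in MLC and 63.0, 48.4 and 559.6 in MG (log2 change of 6.78, SE 1.18, adjusted p = 0.0014). MLC replicate 1 was far above the other MLC libraries and MG replicate 3 far above the other MG libraries. Its neighbour Apoc4 had 25.3, 10.4 and 13.8 CPM in MLC and 0.0699, 0.137 and 0.0555 in MG (log2 change of 7.48, SE 1.5, adjusted p = 0.0063). The scavenger receptors Cd36 (342, 363 and 288 CPM in MLC, 7.27, 10.4 and 3.30 in MG) and Msr1 (245, 249 and 252 CPM in MLC and 11, 5.02 and 4.53 in MG) varied little among MLC libraries. Soat1, which esterifies cholesterol, was higher (538, 489.6 and 459 CPM in MLC and 234, 207 and 217 in MG, with an adjusted p of 0.033), and the leukotriene synthase Ltc4s lower (243, 83.8 and 156 CPM in MLC and 531, 741 and 587 in MG, with an adjusted p of 0.0053). The cholesterol exporter Abca1 had 380.4, 340.1 and 479.9 CPM in MLC and 213, 187 and 245 in MG. It did not pass with edgeR (adjusted p = 0.44) but did with limma-voom (adjusted p = 0.0027). A further pair of genes, the platelet-activating factor hydrolase Pla2g7 and the leukotriene hydroxylase Cyp4f18, were higher, with 825, 567 and 503 and 1231, 677 and 570.5 CPM in MLC and 13.5, 6.34 and 7.80 and 15.6, 11.9 and 6.58 in MG. Receptors for dying cells split. Mertk, a receptor for phosphatidylserine bridges, was lower (115, 135 and 154 CPM in MLC, 327, 257 and 389 in MG, with an adjusted p of 0.047), its ligand Pros1 was lower too (416, 269 and 352 CPM in MLC and 1227, 1118 and 1338 in MG), and its relative Axl had 334, 258 and 1242 CPM in MLC and 29.1, 15.5 and 102 in MG (adjusted p = 0.098). Axl passed as higher with DESeq2 and limma-voom (adjusted p = 0.011 and 5.1e-05). Apoc4 was not called without MG replicate 1 or 3 (edgeR adjusted p = 0.059 to 0.060), and Cd36 was not called without MG replicate 3 (edgeR adjusted p = 0.056). Soat1 was not called without MG replicate 1, 2 or 3 or MLC replicate 1 or 2 (edgeR adjusted p = 0.070 to 0.13), and Ltc4s was not called without MLC replicate 2 (edgeR adjusted p = 0.053). Cyp4f18 was not called without MG replicate 1, 2 or 3 (edgeR adjusted p = 0.058 to 0.087), and Mertk was not called without MG replicate 1 or 3 or MLC replicate 1, 2 or 3 (edgeR adjusted p = 0.081 to 0.21). Pros1 was not called without MLC replicate 2 (edgeR adjusted p = 0.064).

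Some lists of larger machineries held a single call, where 1.58% of all genes tested were called in either direction. Such a call describes the gene and not its list. Cybb, which forms superoxide as the core of the phagocyte NADPH oxidase, had 2373, 2093 and 1923 CPM in MLC and 34.9, 26.7 and 13.4 in MG (log2 change of 6.41, SE 0.55, adjusted p = 1.7e-07). It was the single call among 9 tested genes of the complex. Its membrane partner Cyba had 1777, 1507 and 1253 CPM in MLC and 1052, 1682 and 1208 in MG, with a 95% interval of -0.49 to 0.90. Among 18 inflammasome genes the flagellin-responsive sensor Nlrc4 was called (45.7, 61.1 and 41.9 CPM in MLC, 0.396, 0.365 and 0.139 in MG). Among 24 pattern recognition genes the RNA sensor Tlr8 was (177, 168 and 166 CPM in MLC and 0.722, 0.479 and 0.50 in MG, with an adjusted p of 5.3e-05). Il6 was the single call among 24 inflammatory genes and was lower, with 9.92, 6.75 and 8.44 CPM in MG and 0, 0 and 0.0942 in MLC (adjusted p = 0.035). Among 21 Fc receptor and complement genes 1 was higher and 1 lower, the higher one being the C3a receptor C3ar1 (1892, 1431 and 2176 CPM in MLC and 786, 928 and 728 in MG, with an adjusted p of 0.020). Il6 was not called without MG replicate 1, 2 or 3 or MLC replicate 1 or 2 (edgeR adjusted p = 0.073 to 0.21), and C3ar1 was not called without MG replicate 1 or 3 or MLC replicate 3 (edgeR adjusted p = 0.067 to 0.094).

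Of 37 lysosomal genes 3 were higher and 1 lower. Without MG replicate 1, 2 or 3 or MLC replicate 1 or 3, 1 was called higher. Ctsc (cathepsin C), which activates serine proteases of granules, had 7182, 6536 and 6917 CPM in MLC and 2273, 2302 and 2086 in MG (log2 change of 1.63, SE 0.29, adjusted p = 0.0019), and Ctsl (cathepsin L) had 165, 144 and 191 CPM in MLC and 526, 951 and 990.04 in MG (log2 change of -2.30, SE 0.33, adjusted p = 1.5e-04). Iron genes had Spic and Cp higher among 17. Ceruloplasmin (Cp), the ferroxidase that aids iron export, had 305, 497 and 388 CPM in MLC and 12.2, 11.3 and 7.55 in MG (log2 change of 5.26, SE 0.90, adjusted p = 0.0013). Matrix genes were called on the low side, with 5 lower of 32 tested (median 0.10). Without MG replicate 2 or 3 or MLC replicate 1 or 2, 3 were called lower. Sparc, a collagen-binding protein, had 2423, 4583 and 3074 CPM in MG and 195, 211 and 206 in MLC (log2 change of -4.04, SE 0.36, adjusted p = 2.3e-07), and the protease inhibitor Serpine2 1245, 1354 and 2043 CPM in MG and 79.5, 28.6 and 72.2 in MLC (log2 change of -4.69, SE 0.43). The groups did not overlap in either.

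**Figure D4:**
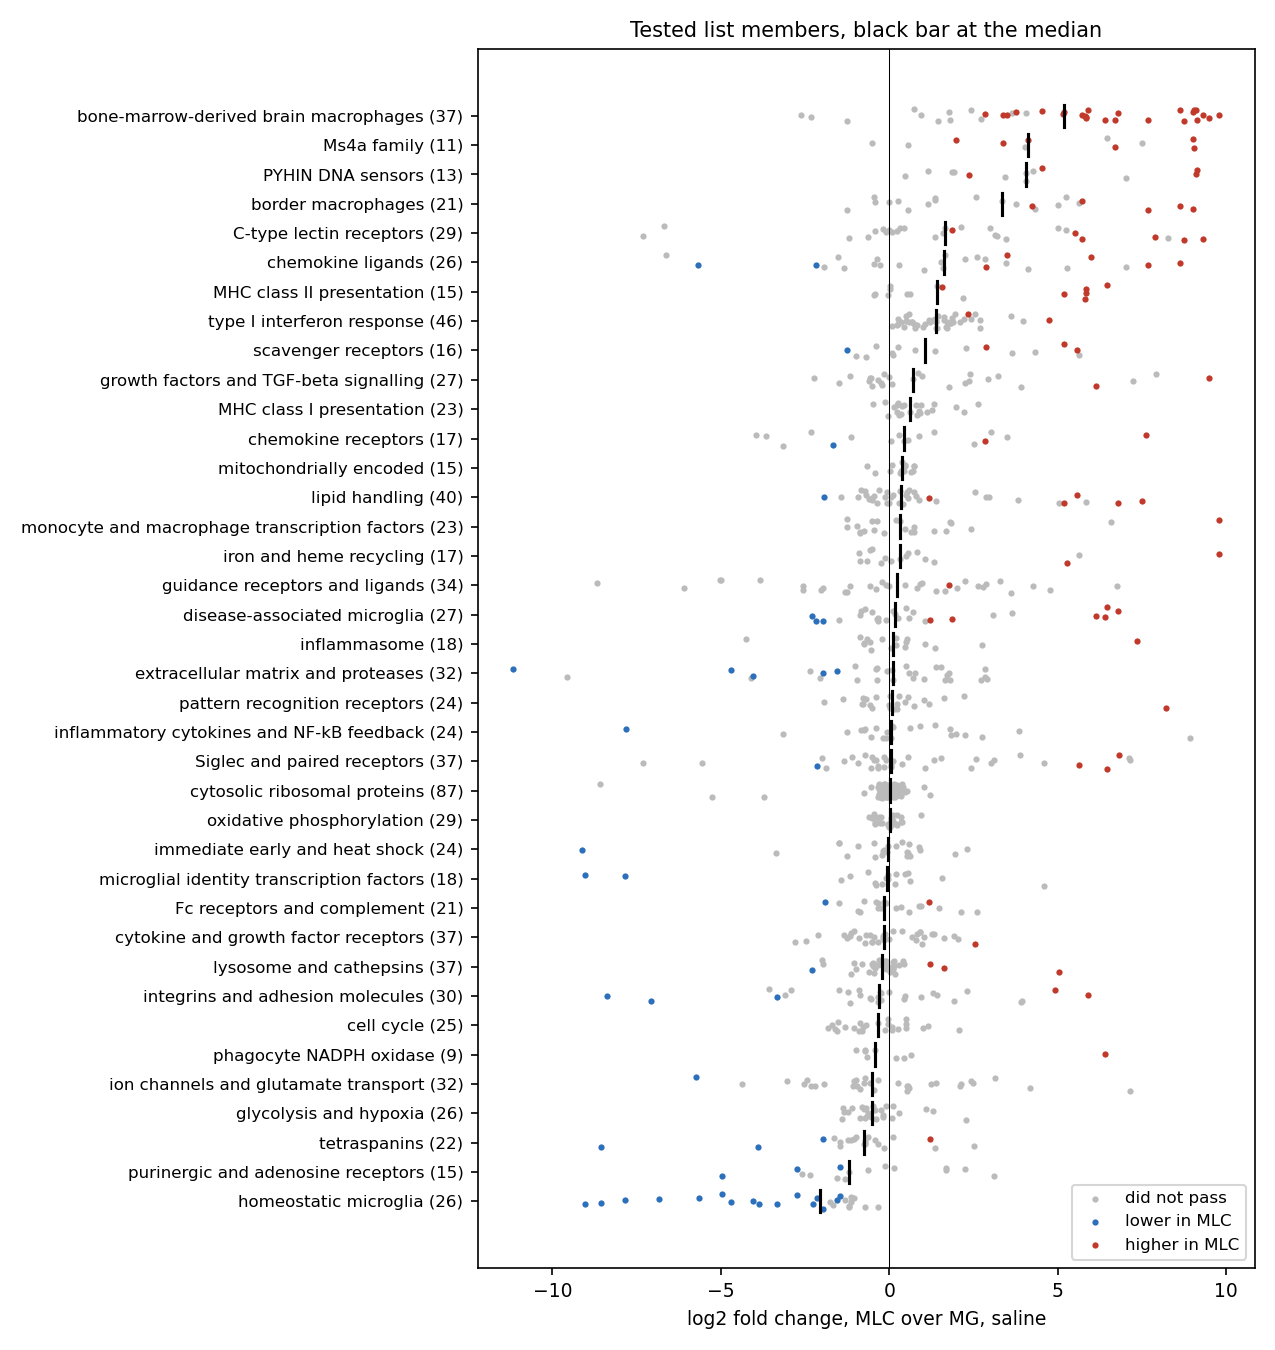
Each point is the log2 fold change of MLC over MG after saline for 1 tested member of a gene list (number tested in brackets), red if called higher, blue if called lower and grey if it did not pass, with the list median as a black bar. Lists are sorted by median, from homeostatic microglia (-2.06) to bone-marrow-derived brain macrophages (5.18). The medians of ribosomal and oxidative phosphorylation genes lie near 0, while the lowest ribosomal gene is at -8.59 and did not pass.

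General machinery gave 0 calls with edgeR on all 21 libraries. This held for 87 ribosomal protein genes (median 0.01), 29 genes of oxidative phosphorylation (0.01), 15 mitochondrially encoded genes (0.37), 26 glycolysis and hypoxia genes (-0.52) and 25 cell cycle genes (-0.33). At an unadjusted p under 0.05 there were 2, 0, 0, 1 and 1 genes of these lists, against 1509 of all 18867. DESeq2 called 1 ribosomal and 1 cell cycle gene, both lower. Limma-voom called 3 ribosomal, 2 glycolytic and 1 cell cycle genes, all lower. EdgeR on the 6 libraries called 1 ribosomal and 1 cell cycle gene lower and 1 glycolytic gene higher, and on the 8 saline libraries it called 1, 1 and 1. The proliferation marker Mki67 had 3.82, 3.43 and 6.03 CPM in MLC and 1.65, 7.75 and 0 in MG. Several of the genes with the most counts in these cells also overlapped between groups. Besides Ctss, with an interval of -0.60 to 0.62 for the log2 fold change, the complement component C1qb had 8221, 6694 and 8017 CPM in MLC and 8069, 12046 and 9822 in MG (interval -1.45 to 0.68) and cathepsin D (Ctsd) had 7392, 5107 and 17508 CPM in MLC and 10511, 13968 and 18522 in MG (-1.95 to 0.91). Of 27 disease-associated microglia genes 6 were higher and 3 lower (median 0.15). The higher ones numbered 3 without MG replicate 1, 2 or 3 or MLC replicate 1. The phagocytic receptor Trem2 that this state depends on had 1751, 1334 and 1938 CPM in MLC and 2289.7, 3175 and 2833 in MG, with every MLC library below every MG library. Trem2 did not pass with edgeR (adjusted p = 0.43) but did with limma-voom (adjusted p = 0.0013).

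Other genes named by the size of their change were lower in MLC. The sarcoglycan Sgce had 257, 274 and 249 CPM in MG and 1.5, 1.38 and 0.527 in MLC (log2 change of -7.84, SE 0.83, adjusted p = 2.4e-06), Nav3, a microtubule-binding protein, 236, 283 and 185 CPM in MG and 4.34, 8.15 and 7.33 in MLC, and Ecscr, which endothelial cells also carry, 345, 550.1 and 378 CPM in MG and 15.7, 4.56 and 5.10 in MLC. Lag3, an inhibitory receptor for MHC class II, had 35.8, 42.5 and 349 CPM in MG and 16.5, 4.40 and 6.59 in MLC, and MG replicate 3 stood far above the other MG libraries. Lag3 was not called without MG replicate 3 or MLC replicate 2 or 3 (edgeR adjusted p = 0.12 to 0.51). A group of gene models on chromosome 14 was also near absent from MLC, and was noticed after the values had been seen. Of 196 tested models on that chromosome named Gm with a number, 18 were lower and 0 higher, against 8 lower and 7 higher of 4206 such models on other chromosomes. Together with 2 further models there, the lower ones summed to 336, 299 and 249 CPM in MG, 4.08, 1.40 and 3.45 in MLC and 395 and 418 in NoTx. Gene models of this kind can be copies of each other and the table holds fractional counts, so how reads were split among them is uncertain, and the group may amount to fewer genes than its count.

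Markers of other cells were read as summed levels, which differed between cell types and between libraries. The 11 tested neuronal markers summed to 6.56 to 12.6 CPM in MLC and 3.74 to 8.85 in MG. For the 7 endothelial and mural markers the sums were 0.521 to 6.34 CPM in MLC and 17.9 to 27.9 in MG, with Pecam1 carrying most of the MG sum (16.3, 19.4 and 19 CPM in MG, 0.478, 3.94 and 0.170 in MLC). T and NK cell markers (5 tested) summed to 7.07 to 10.5 CPM in MLC and 1.14 to 1.63 in MG. Most of the T and NK cell sum of MLC was Cd4 (8.84, 2.37 and 9.78 CPM in MLC, 0, 0.0228 and 0.416 in MG), which macrophages can express. Neutrophil markers summed to 163 to 469.6 CPM in MLC and 444 to 779.7 in MG, nearly all of it the receptor Csf3r, while the defining S100a8 had 1.09, 0.998 and 0.301 CPM in MLC and 1.40, 0.547 and 0.444 in MG. Oligodendrocyte markers summed to 86.7 to 178 CPM in MLC and 127 to 204 in MG. Red cell and choroid plexus markers summed to 63.0 to 595 CPM in MLC and 51.8 to 115 in MG, with the haemoglobin Hbb-bs at 139, 0.566 and 20.3 CPM in MLC. The part of other cells in the contrast was not tested.

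The same contrast was read in the libraries taken after seizure, none of which belonged to the saline groups. Of the called genes, 143 of 147 higher and 145 of 152 lower genes were called again in the same direction, where 2.51% of all genes were higher and 3.37% lower. The fit gave both contrasts the same spread for each gene. The labels call the 6 MLC seizure libraries biological replicates, but the names of 2 of them repeat the code of another with 11b added. Sall1 had a log2 fold change of -5.67 after seizure and -7.83 after saline, Clec12a 9.93 and 9.31, and P2ry12 -2.82 and -2.73. For class II, H2-Ab1 had 3.66 after seizure and 5.84 after saline, and Cd74 3.16 and 5.18. Neither difference between the treatments passed (adjusted p = 0.98 and 1.00). Over all genes the difference of the 2 contrasts had 0 calls with edgeR (lowest adjusted p = 0.28). An unadjusted p under 0.05, which some genes reach without any difference, was seen in 1036 of 18867 genes. After seizure 20 of 26 homeostatic genes were lower and 10 of 46 interferon genes higher in MLC. Treatment and batch coincide, so the 2 contrasts cannot be compared for treatment alone.

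**Figure D5:**
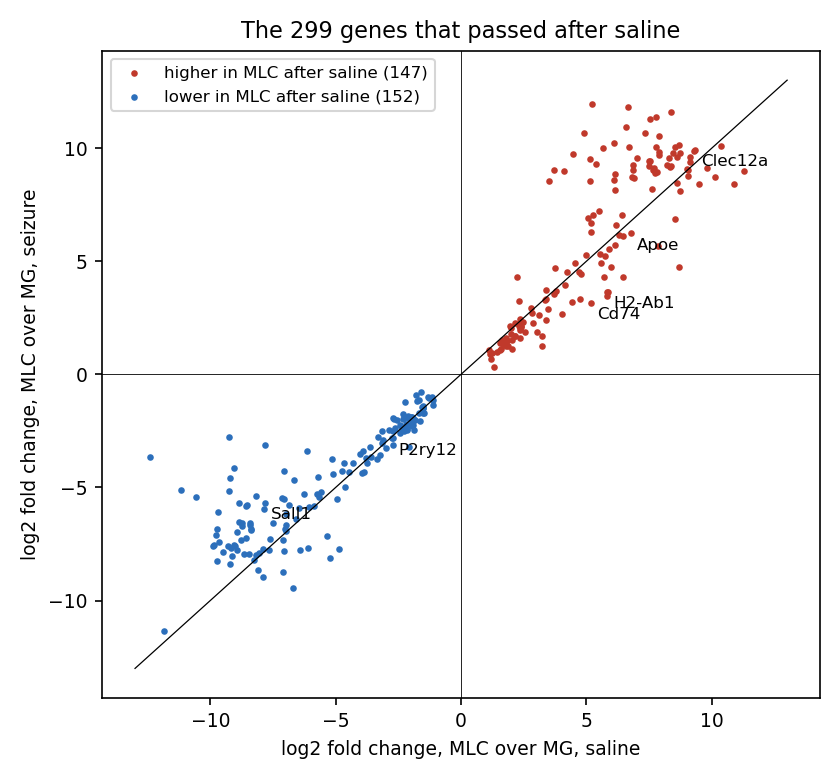
For the 299 genes called after saline, the log2 fold change of MLC over MG is plotted after saline (x axis) and after seizure (y axis, 6 MLC and 4 MG libraries), in red for the 147 higher and blue for the 152 lower genes, with the line of equal values. All points lie in the upper right or lower left, and H2-Ab1 and Cd74 lie below the line.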

How the data were processed

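RNA-seq of sorted cells gave 21 libraries, of which the 3 MLC and 3 MG saline libraries were compared. The deposited values are estimated counts, not all of them whole, and were rounded. Per the submitters' processing notes, the authors used Trim Galore 0.6.7 with cutadapt 3.4, STAR 2.7.10a, featureCounts and the mouse genome GRCm39. What made the counts fractional is not stated there. The libraries came from a low-input kit without stated molecular identifiers, so counts are not independent molecules. For genes that overlap on opposite strands, whether counting used strand is not given.

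All 21 libraries entered 1 edgeR quasi-likelihood fit (filter by group, TMM scaling, robust) with 6 group means, and the Benjamini-Hochberg adjustment ran over the 18867 tested of 57180 genes, with 0.05 as threshold and no fold minimum. Standard errors (SE) were taken from the F statistic, as the size of the log2 fold change divided by the root of F, and 95% intervals follow from them. The depth of each of the 6 libraries, 36.8 M to 50.3 M counts, resolves single counts as shown, and no fold is given where a group had at most 3 counts. R 4.3.3, edgeR 4.0.16, limma 3.58.1 (voom) and DESeq2 1.42.0 were used. In data simulated for this comparison with 200 changed genes of average log2 CPM of at least 4, the share that the fit found was 0% at 2-fold, 35.8% at 4-fold and 75.8% at 8-fold, with 1 false among 75 calls.

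The comparison, the 49 gene lists and the naming rule were chosen with earlier results of these data known. That rule allowed Csf1r, Cx3cr1, members of a list, the 10 genes with the highest levels, and genes called without overlap of the groups that were among the 12 largest changes per direction (average log2 CPM of at least 4) or the 10 most abundant per direction. Alternatives were DESeq2, limma-voom, RLE scaling, no low-count filter, fits of the 6 or the 8 saline libraries alone, the replicate number as a block, a fold minimum of 2, GC-content correction, thinning to equal depth and leaving out each library. Promoter sequences are from RefSeq (GRCm38.p6) and were matched by symbol only, since the counts rest on another build. Values of some single genes are not reported here.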

Additional observations from a re-analysis of the deposited data

How the results depend on the processing

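Against 147 higher and 152 lower genes (299 called) in the edgeR fit of all 21 libraries, DESeq2 called 340 and 329 (669), limma-voom with quality weights 769 and 929 (1698), the fit of only the 6 MLC and MG saline libraries 485 and 387 (872) and the fit of only the 8 saline libraries 472 and 435 (907). A fold minimum of 2 left 102 and 93 (195). These fits called 299, 297, 294, 297 and 195 of the 299 again. RLE scaling (154 and 150), no low-count filter (130 and 143), GC-content correction (131 and 136, with GC content known for 95.4% of tested genes) and thinning (150 and 153) stayed within 1.5 times the count. Leaving out 1 of the 6 libraries gave 181 to 227 called genes, 84 to 131 of them higher and 77 to 98 lower, with 185, 182 and 181 in the fits that lacked MG replicates 1, 2 and 3 and 202, 182 and 227 in those that lacked MLC replicates 1, 2 and 3. With the replicate number as a block the fit called 147 and 185 genes, 252 of them among the 299. Deviations of same-numbered MLC and MG libraries correlated at 0.01, 0.05 and 0.10, and not every library correlated best with its own number, so the samples share only a number and are not treated as paired. Of 75 called genes named with values, 45 were called under all 16 alternatives and none changed direction in a fit that called it. GC-content correction ended the calls of Cst3, Ltc4s, Mertk, Cd63, Soat1, C3ar1, Clec7a and P2ry13 (adjusted p from 0.066 to 0.39), and limma-voom those of Apoe and Lag3 (adjusted p = 0.051 and 0.052). Without the low-count filter Cd36, Cd74, Ciita, Cxcr4, Cyp4f18, Dab2, H2-Aa, H2-Ab1, Igf1, Il2rg, Itga4, Mertk, Selplg and Soat1 did not pass (edgeR adjusted p from 0.061 for Cd36 to 0.21 for H2-Aa). RLE scaling ended the call of Mertk (edgeR adjusted p = 0.070), the fits of 6 and 8 libraries that of Lag3 (0.065 and 0.051), the block those of Cxcr4, Dab2, Il2rg and Soat1 (0.053 to 0.083) and the fold minimum those of 18 named genes. Named genes newly called numbered 4 with DESeq2, 11 with limma-voom, 3 and 2 with the 6 and 8 libraries, and 1 without MLC replicate 2. With limma-voom these included Tmem119, Cx3cr1, Trem2 and Smad3 as lower and Ptprc, Abca1 and Axl as higher. Of the 98 counts of higher or lower genes over the 49 lists, 23 with DESeq2, 46 with limma-voom, 31 with 6 libraries and 30 with 8 rose by over 1.5 times and 0 fell. Without the low-count filter 3 rose and 6 fell by as much, and with the fold minimum 0 and 12. With 3 libraries a group, changes of 2-fold were below what the simulated data let edgeR recover.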
